A study of Homo sapiens with 13 samples.

Results

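The genes described here are targets and subunits of the transcription factor NF-kappaB together with inflammatory cytokines, in a human non-small cell lung carcinoma model of bone metastasis. The group was drawn up by name as 35 genes, and a gene was measured where a probe set on the array named that gene alone. This gave 32 measured members among 11963 genes in all. BCL3 and SOD2 had only probe sets that name several genes, and BIRC3 had none, so these 3 genes have no value here.

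The study compared control cells that do not metastasise with 3 lines, M1, M4 and M5, which descend from control cells that had reached the bones of mice after injection into the heart and which colonise bone efficiently when injected again. Total RNA was hybridised to 13 Affymetrix oligonucleotide arrays: 2 of control cells without a luciferase reporter, 2 of control cells with the reporter, and 3 each of M1, M4 and M5. Each array held a pool of 3 groups of the corresponding cells, and metastatic activity was scored in 10 mice per group. The labels call the arrays biological replicates, name no parental cell line, no passage and no time in culture, and do not say whether M1, M4 and M5 carry luciferase. In such bulk RNA, fewer cells making a transcript and less transcript per cell cannot be told apart.

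NF-kappaB is a family of dimers built from the subunits RELA, RELB, REL, NFKB1 and NFKB2. In resting cells the dimers are held in the cytoplasm by inhibitors such as NFKBIA (I-kappaB-alpha), and signals from interleukin-1, tumour necrosis factor or Toll-like receptors lead to the destruction of the inhibitor and the entry of the dimers into the nucleus. There they switch on chemokines, cytokines and, as a brake, the genes of their own inhibitors. Tumour-derived IL6, CXCL8 and IL11 are known in bone for promoting the formation of osteoclasts, the cells that resorb bone.

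The promoters of the 6 members below are shown because these genes are classical targets whose upstream sequence carries a match to the NF-kappaB binding motif, and because they include IL6 and the CXC chemokines on which the results turn. Each line gives the 150 bases before the transcription start, read 5′ to 3′ on the gene's strand, from RefSeq on assembly GRCh38.p14, and the capitals mark the motif GGANTTTCC or its reverse complement GGAAANTCC.
IL6 (chr7:22727050-22727199, plus strand): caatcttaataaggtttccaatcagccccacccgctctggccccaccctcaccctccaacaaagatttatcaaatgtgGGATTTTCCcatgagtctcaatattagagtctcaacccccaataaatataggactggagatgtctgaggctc
CXCL1 (chr4:73869243-73869392, plus strand): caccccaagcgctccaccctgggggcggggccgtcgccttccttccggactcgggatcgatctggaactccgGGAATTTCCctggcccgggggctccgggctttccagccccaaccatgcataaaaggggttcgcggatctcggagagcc
CXCL2 (chr4:74099196-74099345, minus strand): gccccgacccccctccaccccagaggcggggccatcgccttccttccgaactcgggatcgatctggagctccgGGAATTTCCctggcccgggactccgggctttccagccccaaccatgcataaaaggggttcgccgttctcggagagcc
CXCL3 (chr4:74038690-74038839, minus strand): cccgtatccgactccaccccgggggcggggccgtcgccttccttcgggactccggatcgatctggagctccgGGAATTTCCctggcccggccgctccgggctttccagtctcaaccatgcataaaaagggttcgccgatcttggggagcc
CXCL8 (chr4:73740419-73740568, plus strand): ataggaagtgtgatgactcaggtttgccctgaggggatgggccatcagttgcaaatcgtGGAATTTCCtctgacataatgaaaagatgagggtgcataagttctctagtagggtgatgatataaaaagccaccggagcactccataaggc
NFKBIA (chr14:35404750-35404899, minus strand): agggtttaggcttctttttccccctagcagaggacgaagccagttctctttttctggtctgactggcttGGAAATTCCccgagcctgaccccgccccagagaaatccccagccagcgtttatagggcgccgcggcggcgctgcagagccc
Of the 32 measured members, 25 had a promoter window running from 250 bases before to 50 bases after the start, and 15 of these held the motif on either strand. Over all genes with a window, 2.01% of 27305 held it. All 6 CXC chemokines held it, and the ones printed for CXCL1, CXCL2, CXCL3 and CXCL8 read GGAATTTCC. A match describes the letters only, and binding was not measured in this study.

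The deposited values are log2 signals, so a difference of 1 is a doubling, and the array medians lay between 5.62 and 5.69. The 62 Affymetrix control probe sets, which include the spike-ins added to each sample and probe sets of human beta-actin and GAPDH, sorted the arrays into 4 sets. The labels do not record these sets. Set 1 held replicate 1 of both controls and M1 replicate 2, and set 2 held replicate 2 of both controls and replicate 1 of M1, M4 and M5. Set 3 held M1 replicate 3 and M4 replicates 2 and 3, and set 4 held M5 replicates 2 and 3. Controls were therefore present only in sets 1 and 2. The number of sets was a setting, 4 for all control probe sets and 3 for the 45 spike-ins alone. At this coarser cut the spike-ins joined sets 1 and 3, so the clusterings differed in both the probe sets and the number of sets. The 3′ minus 5′ signal of the beta-actin control probe sets was 0.11 to 0.30 on the log2 scale in sets 3 and 4 and -0.19 to -0.03 in sets 1 and 2. The GAPDH control probe sets gave 0.10 to 0.17 in sets 3 and 4 and 0.03 to 0.16 in sets 1 and 2, so that they did not separate the sets. Both kinds of probe set had helped to define the sets, so these values are not an independent view of them. Comparisons were fitted without and with the sets as a block, and the part that RNA quality or hybridisation played in the set differences was not tested. With the block, M5 is compared with control, M1 and M4 through M5 replicate 1 alone, since set 4 holds no other line, so these blocked values have no replicate of M5. Of 6 epithelial markers, the keratins KRT7, KRT8, KRT18 and KRT19 lay above the gene median on all 13 arrays, and EPCAM and CDH1, which define epithelial cells, lay below the lower quartile on all of them. Of 8 measured leukocyte markers, PTPRC, CD163, LYZ, CD3E and MPO lay below the lower quartile on every array, and the mean of the list was 4.06 to 4.44 over the arrays.

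**Figure D1:**
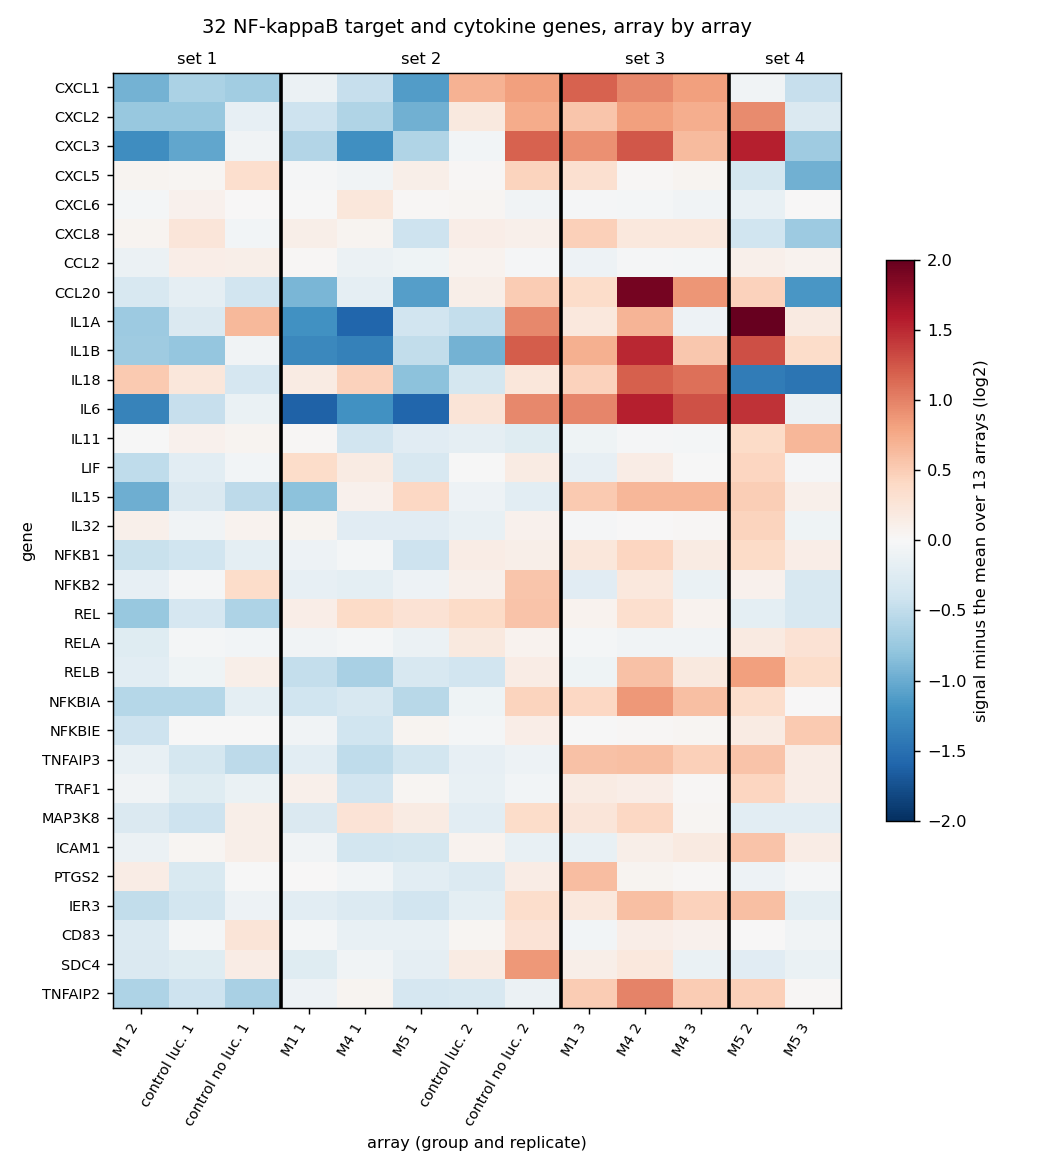
Heat map of the log2 signal of the 32 measured members (rows) on the 13 arrays (columns), each minus the gene's mean over all arrays, with colours that end at -2 and 2 and thick lines between the 4 array sets. The rows of CXCL1, CXCL2, CXCL3, CCL20, IL1B and IL6 are blue in set 1 and on the metastatic arrays of set 2 and red in set 3. The other chemokine and cytokine rows do not follow this pattern throughout, and CXCL8 and IL18 lie below their means on all 3 M5 arrays.

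Across the 3 lines together, no member was called in the test without the block. CXCL1 and IL6 were called lower only with the 4 array sets as a block, and so depend on how the sets were drawn. Without the block, M5 was lower than control, M1 and M4 in CXCL8, a chemokine that attracts neutrophils, and in IL18, a cytokine of the interleukin-1 family. With the block, only IL18 in M5 against M4 kept its call. A gene was called at an adjusted p under 0.05 (limma, Benjamini-Hochberg over all 11963 genes). Without the block, 0 of 32 members were called for the mean of the lines, where 0.0251% of all genes were, and 4 members had an unadjusted p under 0.05, beside 8.16% of all genes. The members called were 0 in M1, beside 0.0251% of all genes, 0 in M4, beside 0.092%, and 2 in M5, beside 2.37%. At an unadjusted p under 0.05 the counts were 3 in M1, 4 in M4 and 6 in M5, beside 3.08%, 6.91% and 18% of all genes. The 2 called in M5 were CXCL8 and IL18, both lower.

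With the array sets as a block, 2 members were called for the mean of the lines, where 0.527% of all genes were, and 14 had an unadjusted p under 0.05, where 9.69% of all genes did. Both called members, CXCL1 and IL6, were lower in the lines. The count was 0 in M1, beside 0.234% of all genes, 0 in M4, beside 0.15%, and 1 in M5, beside 1.98%, which was CXCL1. At an unadjusted p under 0.05 there were 16 (M1), 11 (M4) and 12 (M5), beside 9.51%, 7.01% and 15.3%. The median difference of the 32 members was -0.00 without the block, beside 0.01 over all genes, and -0.22 with it, beside -0.01 over all genes. With the block, 26 of the 32 members had a mean difference below 0 and 6 above.

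Between lines, no member was called in M4 against M1 in either fit, where 0.0251% of all genes were without the block and 0.117% with it. At an unadjusted p under 0.05 (limma) there were 3 members without the block and 5 with it, beside 2.83% and 4.84% of all genes. M5 against M1 and M5 against M4 each had 2 members called without the block, CXCL8 and IL18, beside 1.23% and 2.16% of all genes. With the block the counts were 2 and 1, beside 1.61% and 1.85%. At an unadjusted p under 0.05, M5 against M1 had 6 members in either fit, beside 14.8% and 15.4% of all genes, and M5 against M4 had 5 and 6, beside 15.1% and 14.3%.

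Taken array by array, few members separated a line from the 4 controls. All 3 M1 arrays lay below the controls in 1 member, NFKB2, beside 3.59% of all genes, and above them in 0, beside 2.35%. All 3 M4 arrays lay above in 3 members, IL18, IL15 and TNFAIP2, beside 5.92%, and below in 1, the dim CCL2, beside 5.53%. All 3 M5 arrays lay below in CXCL8 and IL18, beside 6.3%, and above in IL15 and TRAF1, beside 5.88%. M5 lay below the other 10 arrays in the same 2 genes, CXCL8 and IL18, beside 3.1% of all genes, and above them in 0, beside 1.87%.

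**Figure D2:**
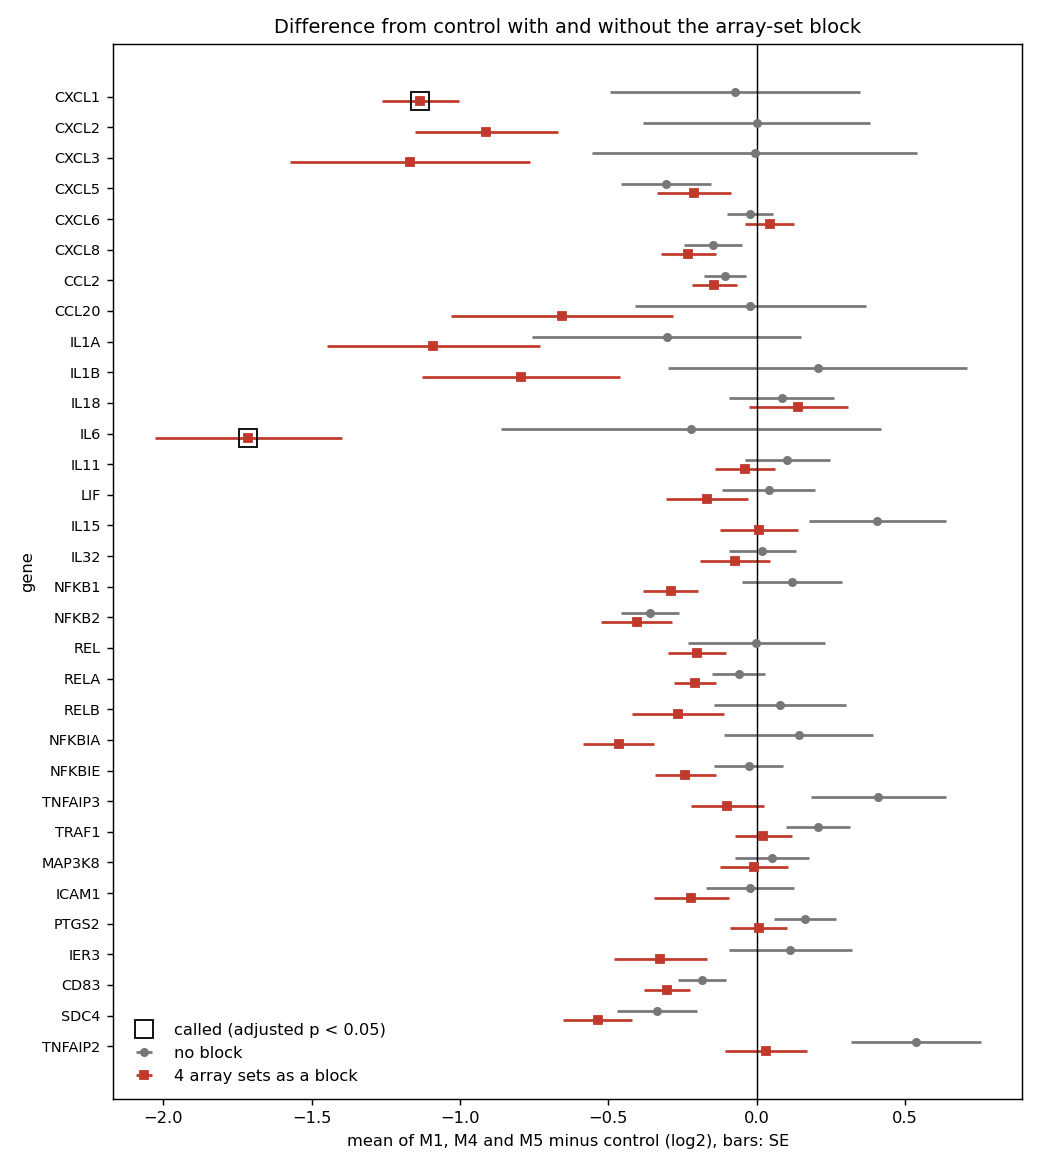
Log2 difference between the mean of M1, M4 and M5 and the mean of both controls for each of the 32 measured members, without a block (grey) and with the 4 array sets as a block (red), with bars of 1 limma standard error and a square around called genes. CXCL1 and IL6 are the 2 squares, at -1.13 and -1.71, and both grey points of these genes lie within their bars of 0.

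CXCL1, which draws neutrophils through the receptor CXCR2, had signals in set 1 of 10.63 in control without luciferase, 10.70 in control with luciferase and 10.39 in M1. In set 2 its signals were 12.15 and 12.03 in the controls without and with luciferase, 11.21 in M1, 10.87 in M4 and 10.22 in M5. In set 3 they were 12.50 in M1 and 12.29 and 12.15 in M4, and in set 4 they were 11.26 and 10.86 in M5. Within each of the sets that hold controls, every metastatic array lay below both controls, while the M1 and M4 arrays of set 3 were close to or above the controls of set 2. These arrays of set 3 also lay above the controls of set 1, with which the spike-ins alone place them when cut at 3 sets. The CXCL1 difference for the mean of the lines was -0.07 ± 0.42 (SE) without the block (adjusted p = 0.981, limma) and -1.13 ± 0.13 with it (2.19-fold lower, adjusted p = 0.00250, limma). In M5 it was -1.76 ± 0.20 with the block (3.38-fold lower, adjusted p = 0.00243, limma), beside -0.60 ± 0.54 without it (adjusted p = 0.582). In M4 with the block it was -1.02 ± 0.17 (adjusted p = 0.0511), which missed the threshold. The call for the mean of the lines was kept in 10 of the 12 fits with the block that left out 1 array, and was lost without either control array of set 2, where the difference was -0.97 and the adjusted p 0.0773 without replicate 2 of the control without luciferase.

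CXCL8 (interleukin-8) had signals of 12.60 and 12.76 in control without luciferase and 12.89 and 12.79 in control with luciferase. Its signals were 12.78, 12.70 and 13.14 in M1 replicates 1 to 3, 12.71, 12.87 and 12.87 in M4, and 12.24, 12.26 and 11.94 in M5. All 3 M5 arrays, from 2 different array sets, lay below the other 10 arrays. The difference between M5 and control was -0.61 ± 0.13 (SE; 1.53-fold lower, adjusted p = 0.0250, limma), and a second CXCL8 probe set gave -0.61, although the mean of both probe sets was not called (adjusted p = 0.0996). M5 was also lower than M1 (-0.73 ± 0.13, 1.66-fold, adjusted p = 0.0225) and than M4 (-0.67 ± 0.13, 1.59-fold, adjusted p = 0.0228). The difference from control without the block was called in 7 of 13 fits that left out 1 array. With the block no CXCL8 call was kept: M5 differed from control by -0.55 ± 0.15 (adjusted p = 0.0928), from M1 by -0.57 ± 0.15 (adjusted p = 0.0964) and from M4 by -0.40 ± 0.16 (adjusted p = 0.279). The second probe set gave -1.05 against control with the block. For the first probe set, the difference from control was -0.52 without the block and without both M5 arrays of set 4, and -0.54 within set 2.

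**Figure D3:**
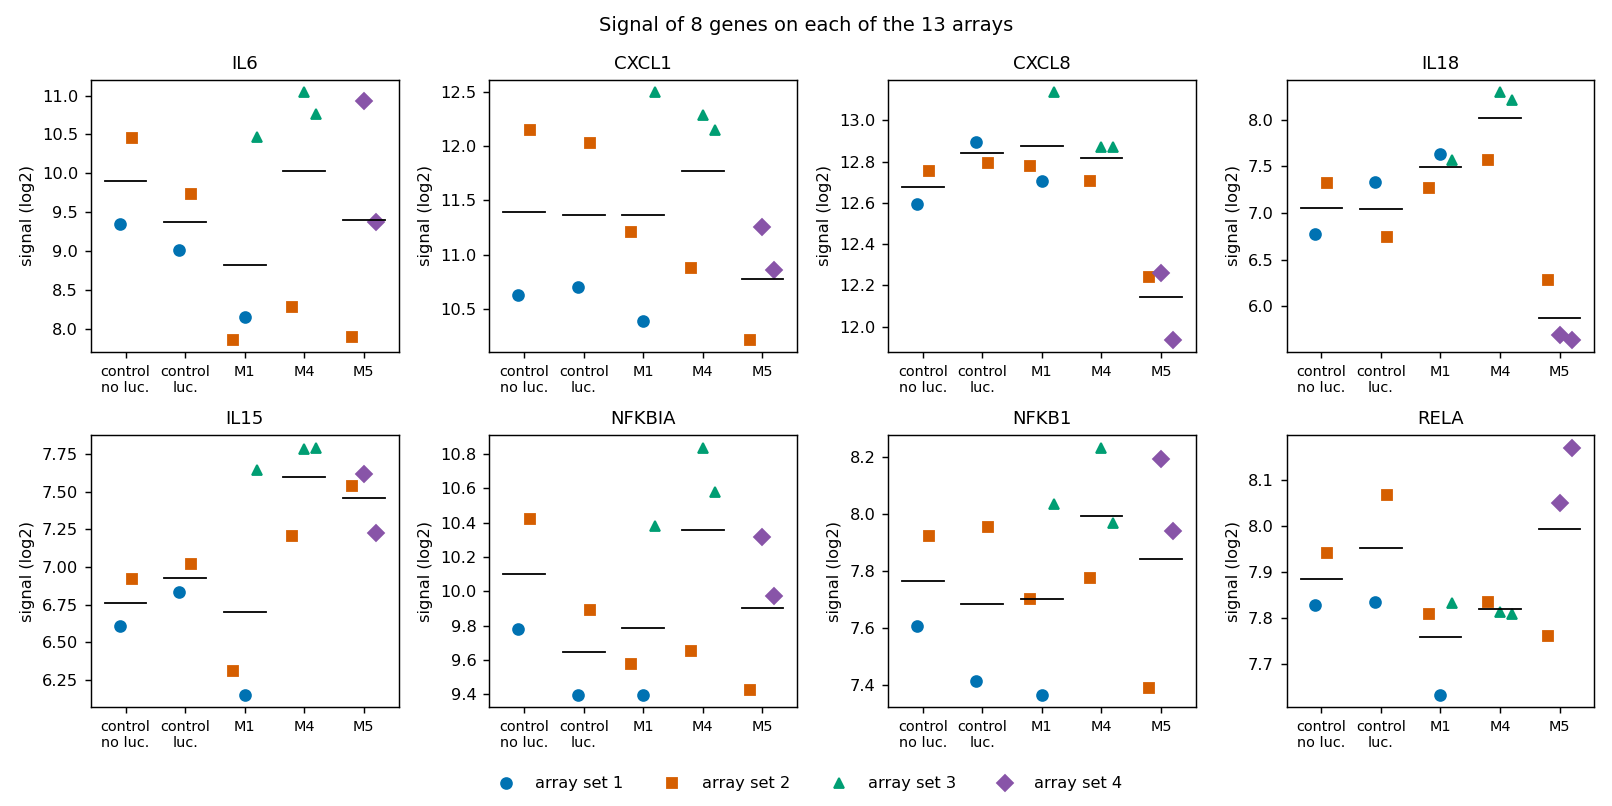
Log2 signal of IL6, CXCL1, CXCL8, IL18, IL15, NFKBIA, NFKB1 and RELA on each of the 13 arrays by group, with the array set given by shape and colour and group means as lines; each panel has its own axis, which does not start at 0. The 3 M5 points of CXCL8 (11.94 to 12.26) and IL18 (5.64 to 6.28) lie below all others, whereas IL6, CXCL1 and NFKBIA separate by set within a line.

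Of the other CXC chemokines, none was called in either fit of all 13 arrays. CXCL2, a close relative of CXCL1, ranged from 9.65 to 11.15 over the 4 control arrays and from 9.46 to 11.37 over the 9 metastatic arrays, and CXCL3 from 6.52 to 8.76 and from 6.32 to 9.13. With the block the mean differences of CXCL2 and CXCL3 were -0.91 ± 0.24 (adjusted p = 0.159) and -1.17 ± 0.41 (adjusted p = 0.317). CXCL5, another neutrophil attractant, was 10.51 to 10.93 in the controls and 9.52 to 10.80 in the lines, with an M5 difference of -0.61 ± 0.19 without the block (adjusted p = 0.129) and -0.11 ± 0.19 with it (adjusted p = 0.880). CXCL6, of the same subfamily, lay below the lower quartile on all 13 arrays (3.23 to 3.61). The probe sets used for CXCL2, CXCL5 and CXCL8 are of a design that can also bind related transcripts, so signals of these neighbours on chromosome 4 may be shared. Of the CC chemokines, CCL20, which attracts lymphocytes and dendritic cells through CCR6, ranged from 6.62 to 7.52 in the controls and from 5.84 to 8.92 in the lines. CCL2, an attractant of monocytes, was below the lower quartile on every array (3.62 to 3.87).

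IL6, the cytokine that signals through gp130 and STAT3, had the largest difference from control of all members in set 1 and, for M1 and M5, in set 2. In set 1 its signals were 9.35 and 9.02 in the controls without and with luciferase and 8.15 in M1. In set 2 they were 10.45 and 9.74 in the controls, 7.86 in M1, 8.28 in M4 and 7.89 in M5. In set 3 they were 10.47 in M1 and 11.04 and 10.76 in M4, and in set 4 they were 10.93 and 9.38 in M5. The 4 metastatic arrays that fell into the sets with controls were thus the lowest of all 13, and those of sets 3 and 4 lay above all 4 controls, apart from M5 replicate 3, which lay among them.

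Set 2 gave IL6 differences from the mean of its 2 controls of -2.23 (M1), -1.82 (M4) and -2.20 (M5), and set 1 gave -1.03 (M1). Between 2 sets the same line differed as much: M4 was 2.63 higher in set 3 than in set 2, M1 was 2.60 higher, and M5 was 2.26 higher in set 4 than in set 2. The IL6 difference for the mean of the lines was -0.22 ± 0.64 without the block (adjusted p = 0.955, limma) and -1.71 ± 0.32 with it (3.28-fold lower, adjusted p = 0.0455). By line the blocked values were -1.70 ± 0.34 in M1 (adjusted p = 0.0828), -1.46 ± 0.41 in M4 (adjusted p = 0.335) and -1.98 ± 0.49 in M5 (adjusted p = 0.0744), none of them called. The blocked call was kept in 4 of 12 fits that left out 1 array, over which the value ran from -2.08 to -1.39 and the adjusted p from 0.00501 to 0.388. Sets 3 and 4 hold no control, so the lines' high IL6 there has no control beside it. The spike-ins alone, however, when cut at 3 sets, place the arrays of set 3 with the controls of set 1. This is a coarser cut than the 4 sets of the block. IL6 was 10.47 to 11.04 on these arrays of set 3 and 9.35 and 9.02 on the controls of set 1, so under that cut these arrays lay above the controls.

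The relatives of IL6 stayed closer together. IL11, a gp130 cytokine known as an osteolytic factor in bone metastasis, was 5.15 to 5.48 in the controls and 5.01 to 6.06 in the lines. LIF, which also signals through gp130, was 8.32 to 8.71 in the controls and 8.04 to 8.97 in the lines. Neither was called in any comparison in either fit of all 13 arrays.

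IL18 had the largest difference between 2 lines of any member. Its signals were 6.77 and 7.33 in control without luciferase and 7.33 and 6.75 in control with luciferase. They were 7.27, 7.63 and 7.57 in M1, 7.57, 8.30 and 8.21 in M4, and 6.28, 5.70 and 5.64 in M5. All M5 arrays lay below the other 10 arrays, and all M4 arrays lay above the controls.

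The difference between M5 and control was -1.17 ± 0.23 (SE; 2.25-fold lower, adjusted p = 0.0189, limma). IL18 in M5 was also lower than in M4 (-2.15 ± 0.24, 4.44-fold, adjusted p = 0.000797) and than in M1 (-1.62 ± 0.24, 3.07-fold, adjusted p = 0.00888). With the block, M5 against M4 kept its call (-1.45 ± 0.29, 2.73-fold, adjusted p = 0.0331), while M5 against M1 (adjusted p = 0.101, with -0.99 within set 2) and M5 against control (-0.67 ± 0.26, adjusted p = 0.247) did not. M5 against M4 was called in 13 of 13 fits that left out 1 array, and without both arrays of set 4 it was -1.75 (adjusted p = 0.0405). M5 against control was called in 9 of those 13 and was -0.77 without both arrays of set 4 (adjusted p = 0.381). The M4 difference from control was +0.98 ± 0.23 (adjusted p = 0.212) and was not called.

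IL1A and IL1B, the 2 forms of interleukin-1 that activate NF-kappaB in neighbouring cells, were not called in any comparison in either fit of all 13 arrays. IL1A was 7.46 to 8.89 in the controls and 6.36 to 10.01 in the lines, the widest range of the members at 3.65, and its highest value was M5 replicate 2. IL1B was 6.05 to 8.21 in the controls and 5.65 to 8.50 in the lines. Within set 2, the IL1A difference from the mean of the controls was -1.44 (M1), -1.82 (M4) and -0.62 (M5).

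IL15, a growth factor of natural killer and T cells, had signals of 6.61 and 6.92 in control without luciferase and 6.83 and 7.02 in control with luciferase. They were 6.31, 6.15 and 7.64 in M1, 7.21, 7.79 and 7.79 in M4, and 7.54, 7.62 and 7.22 in M5. All M4 and all M5 arrays lay above all 4 controls, but M1 lay on both sides of them by set. Neither the M4 difference (+0.75 ± 0.29, adjusted p = 0.633) nor that of M5 (+0.61 ± 0.29, adjusted p = 0.294) was called, and with the block they were -0.01 ± 0.17 (adjusted p = 0.999) and +0.54 ± 0.21 (adjusted p = 0.240). With the block, IL15 was higher in M5 than in M1 by 1.05 ± 0.22 (2.07-fold, adjusted p = 0.0420, limma), a value that rests on M5 replicate 1, and without the block the difference was 0.76 ± 0.31 (adjusted p = 0.282). A second, dimmer IL15 probe set gave 0.42 with the block. CXCL1 was the other member called there, lower in M5 than in M1 (-1.14 ± 0.21, 2.20-fold, adjusted p = 0.0302), and without the block the difference was -0.59 ± 0.57 (adjusted p = 0.661). IL32, an inducer of other cytokines, stayed between 4.34 and 5.01 on all arrays.

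The NF-kappaB subunits showed small differences, and none was called in any comparison against control. NFKB1, the precursor of p50, had signals in set 1 of 7.61 and 7.41 in the controls without and with luciferase and 7.36 in M1. In set 2 they were 7.92 and 7.95 in the controls, 7.70 in M1, 7.78 in M4 and 7.39 in the M5 array. In sets 3 and 4 they were 8.04 in M1, 8.23 and 7.97 in M4, and 8.19 and 7.94 in M5. The metastatic arrays lay below both controls in each set that holds controls, and every array of sets 3 and 4 lay above the metastatic arrays of those sets. With the block the mean difference of NFKB1 was -0.29 ± 0.09 (1.22-fold, adjusted p = 0.272), beside +0.12 ± 0.17 without it (adjusted p = 0.904).

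RELA (p65), the main activating subunit, varied over only 0.54 on the log2 scale. Its signals were 7.83 and 7.94 in control without luciferase, 7.84 and 8.07 in control with luciferase, 7.81, 7.63 and 7.83 in M1, 7.84, 7.81 and 7.81 in M4, and 7.76, 8.05 and 8.17 in M5. The groups overlapped, and the mean difference was -0.06 ± 0.09 without the block (adjusted p = 0.911) and -0.21 ± 0.07 with it (adjusted p = 0.310). A second, dimmer RELA probe set gave 0.01 without the block and 0.04 with it. NFKB2, the precursor of p52 in the alternative pathway, had the lowest unadjusted p of the members for the mean of the lines without the block (0.00324), with a difference of -0.36 ± 0.10 (adjusted p = 0.323). It was 7.50 to 8.08 in the controls and 7.20 to 7.74 in the lines, and the 3 M1 arrays were below all controls. A second NFKB2 probe set gave -0.20 for the same difference and +0.03 in M5. RELB, the partner of p52, was 5.88 to 6.40 in the controls and 5.60 to 7.08 in the lines, and REL was 4.43 to 5.61 and 4.29 to 5.43.

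Among the inhibitors and signalling proteins, NFKBIA, like IL6 and CXCL1, was lower on the metastatic arrays of set 2 than on the arrays of set 3. Its signals in set 1 were 9.78 and 9.40 in the controls without and with luciferase and 9.40 in M1. In set 2 they were 10.42 and 9.89 in the controls, 9.57 in M1, 9.65 in M4 and 9.42 in the M5 array. The other sets gave 10.38 in M1, 10.84 and 10.58 in M4, and 10.32 and 9.97 in M5. The 3 metastatic arrays of set 2 were below both controls of that set, and every array of sets 3 and 4 was above the set 2 control with luciferase. The mean difference was +0.14 ± 0.25 without the block (adjusted p = 0.928) and -0.47 ± 0.12 with it (1.38-fold, adjusted p = 0.150). TNFAIP3 (A20), a ubiquitin-editing enzyme that ends NF-kappaB signalling, was 9.19 to 9.62 in the controls and 9.20 to 10.32 in the lines. NFKBIE, a further inhibitor, ranged from 5.63 to 6.57 over all arrays, the adaptor TRAF1 from 4.13 to 4.95, and the kinase MAP3K8 from 3.51 to 4.34, below the lower quartile on all 13. None of these 5 genes was called against control.

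The effector targets were likewise not called against control. The adhesion molecule ICAM1 was 5.97 to 6.24 in the controls and 5.75 to 6.69 in the lines, and the survival gene IER3 was 9.35 to 10.07 and 9.22 to 10.32. PTGS2 (cyclo-oxygenase 2), the enzyme of prostaglandin synthesis, lay below the lower quartile on all arrays (3.43 to 4.36). SDC4, a heparan sulphate proteoglycan of the cell surface, was 7.36 to 8.47 in the controls and 7.32 to 7.82 in the lines, with a blocked mean difference of -0.54 ± 0.12 (1.45-fold, adjusted p = 0.0854). CD83, a surface protein best known from mature dendritic cells, had a blocked difference of -0.30 ± 0.08 (adjusted p = 0.148). TNFAIP2 was the member with the largest positive mean difference without the block, +0.54 ± 0.22 (adjusted p = 0.553), and it became 0.03 with the block. A second, dimmer TNFAIP2 probe set gave -0.07 without the block.

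Within array set 2, the one set with both controls and all 3 lines, 14 of 32 members had all 3 metastatic arrays below both controls, which was so for 12% of all genes, and 0 had them above, which was so for 7.52%. The 14 were CXCL1, CXCL2, CXCL3, CCL20, IL6, NFKB1, NFKB2, REL, RELA, NFKBIA, TNFAIP3, IER3, CD83 and SDC4. By line, 21 members (M1), 25 (M4) and 21 (M5) lay below both controls, beside 39.2%, 39.4% and 40.2% of all genes, and 4, 5 and 2 lay above both, beside 31.5%, 30.5% and 34.6%. The median member difference in set 2 was -0.25 for M1, -0.30 for M4 and -0.31 for M5, where all genes had -0.02 in each line. In set 1, M1 lay below both controls in 20 members, beside 36.8% of all genes, and above them in 5, beside 31.9%, with a median difference of -0.21. The 3 lines share the same 2 control arrays within set 2, so these counts are not independent of one another. Over all 13 arrays, 0 members had the 9 metastatic arrays wholly above or wholly below the 4 controls, beside 0.276% and 0.326% of all genes.

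**Figure D4:**
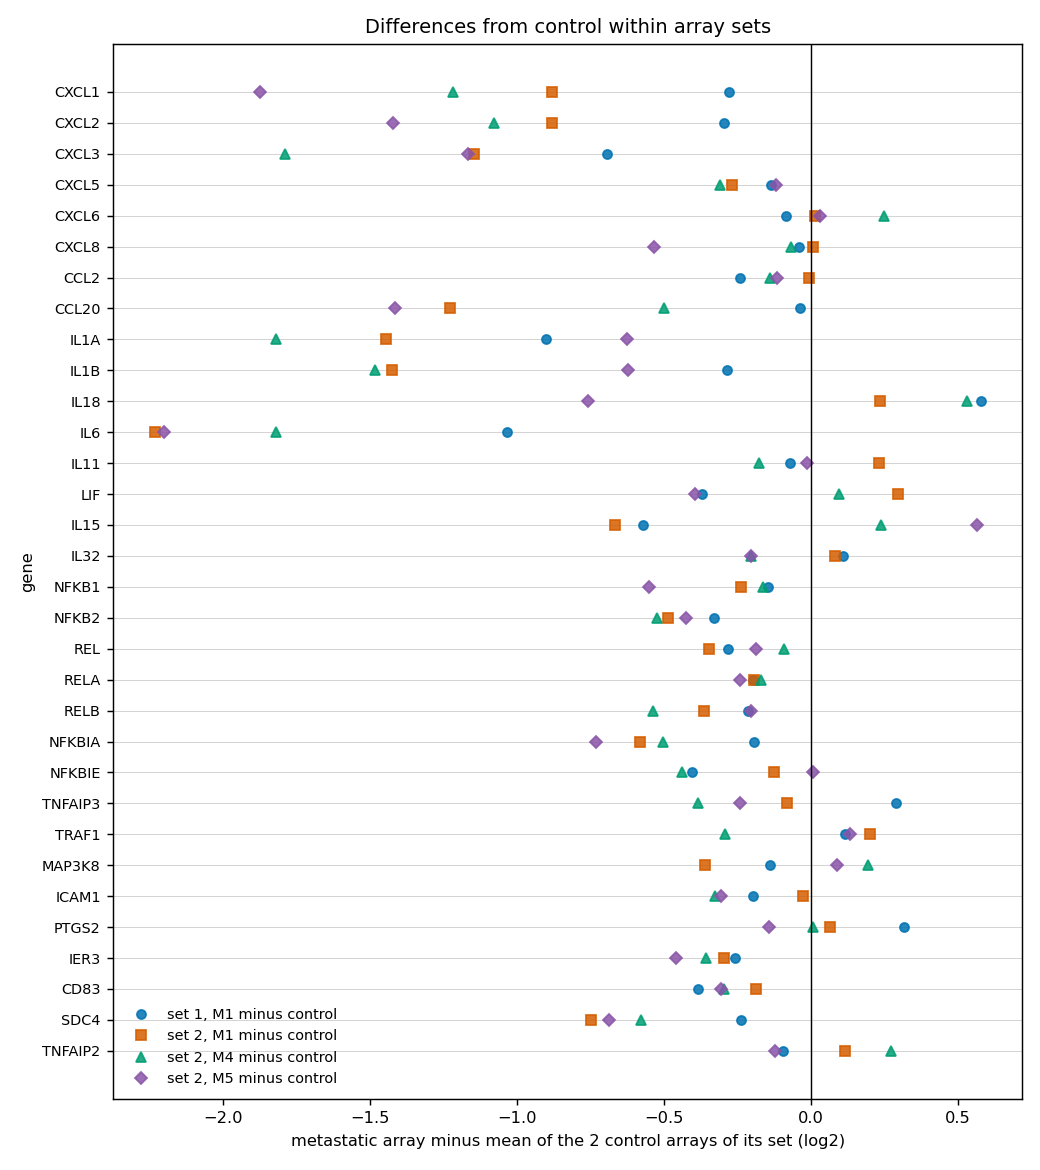
Difference in log2 signal between a metastatic array and the mean of the 2 control arrays of its own array set, for each of the 32 measured members, with 1 point for M1 in set 1 and for M1, M4 and M5 in set 2. IL6, CXCL1, CXCL2 and CXCL3 lie left of 0 in all 4 differences, IL6 from -2.23 to -1.03, while IL18 lies left of 0 only in M5.

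The same line differed between sets in many of the same genes. M4 in set 3 was above M4 in set 2 by more than 1 in 10 of 32 members (31.2%), and 0.393% of all genes differed by more than 1 in either direction. These 10 were CXCL1, CXCL2, CXCL3, CCL20, IL1A, IL1B, IL6, RELB, NFKBIA and TNFAIP3. For M1 the difference between sets 3 and 2 passed 1 in 7 members, beside 0.577% of all genes, and in 5 for M5 between sets 4 and 2, beside 3.69%. The controls of set 2 exceeded those of set 1 by 1.42 in CXCL1 and 1.12 in CXCL3. The median range over the 13 arrays was 1.14 for the members and 0.65 for all genes. The share of a gene's sum of squares that lay between sets exceeded the share between groups in 24 of 32 members (75%) and in 74.8% of all genes, so the members were like other genes in this respect. The share between groups was the larger in IL18, CXCL8, NFKB2, CD83, PTGS2, MAP3K8, SDC4 and CCL2. It was 88.7% in IL18 and 83.7% in CXCL8, beside 79.1% and 71.5% between sets. In NFKB2 and CD83 it was 72.7% and 67.1%, beside 7.18% and 3.85% between sets. The labels do not say at which density or time cells were collected, and whether sets differ in culture or in hybridisation was not tested.

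The reporter itself was compared through the 2 kinds of control. No member was called between control with and without luciferase in either fit (0 and 0.0167% of all genes called without and with the block), and 3 and 8 members had an unadjusted p under 0.05 (limma), beside 1.29% and 5.93% of all genes. In both arrays with luciferase, 11 members lay below both arrays without it, beside 13.4% of all genes, and 2 lay above, beside 15%. IL1A was 8.58 and 8.89 without luciferase and 7.65 and 7.46 with it, and IL1B was 6.92 and 8.21 without and 6.22 and 6.05 with it. The arrays with the reporter were thus lower for both forms of interleukin-1, but the blocked differences of -1.18 ± 0.47 (adjusted p = 0.785) and -1.43 ± 0.44 (adjusted p = 0.605) were not called. Each kind of control holds 2 arrays.

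Other genes of the pathway were read from 4 lists. Of the receptors and adaptors upstream of NF-kappaB, 19 of 23 were measured, and in M5 without the block 1 fell and 0 rose, where 2.37% of all genes were called; in M1 and M4, 0 were called in either fit. This was MYD88, the adaptor of interleukin-1 and most Toll-like receptors, at 7.20 ± 0.10 (SD, n = 3) in M5 and 7.97 ± 0.16 (n = 4) in the controls, a difference of -0.77 ± 0.10 (SE; 1.70-fold lower, adjusted p = 0.00290, limma). MYD88 in M5 was also lower than in M1 (-0.85, adjusted p = 0.00246) and than in M4 (-1.01, adjusted p = 0.000437), and with the block its difference from control was -0.81 (adjusted p = 0.0102). The blocked differences of M5 from M1 and M4 were -0.86 and -0.97, both called. MYD88 lies on chromosome 3, whose 655 measured genes had a median M5 difference of -0.29. For the 335 of them with a mean signal above that of the median gene, as MYD88 has, it was -0.55, beside -0.04 for all such genes. The part of this shift in the MYD88 value was not tested. With the block 1 further gene of the list was called in M5 against control, where 1.98% of all genes were. This was the interleukin-1 receptor IL1R1, higher by 0.87 (adjusted p = 0.0181), beside 0.36 without the block (adjusted p = 0.263). IL1R1 was also called higher in M5 than in M4 with the block (0.95), beside 1.85% of all genes. These blocked values rest on M5 replicate 1 at 6.93, while M5 replicates 2 and 3 were at 6.11 and 6.32 and the controls at 5.92 to 6.16.

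Of the kinases and brakes of the pathway, 15 of 16 were measured. Against control without the block 0 were called, beside 2.37% of all genes in M5. At an unadjusted p under 0.05 in M5 there were 3 (limma), a share near the 18% of all genes. With the block 1 was called for the mean of the lines, beside 0.527% of all genes, and the same 1 in M5, beside 1.98%. This was TNIP1, an A20-binding protein that restrains NF-kappaB. It was lower for the mean of the lines (-0.92 ± 0.15, 1.90-fold, adjusted p = 0.0209) and in M5 (-1.11 ± 0.23, adjusted p = 0.0381). Without the block these differences were -0.24 ± 0.28 (adjusted p = 0.887) and -0.27 ± 0.36 (adjusted p = 0.717). Of the cytokine receptors with JAK and STAT3, 16 of 16 were measured. In M5 against control without the block 1 was called, beside 2.37% of all genes, and it was IL18R1, the receptor of IL18. IL18R1 was at 4.95 ± 0.03 (SD, n = 3) in M5 and 4.10 ± 0.25 (n = 4) in the controls (+0.85 ± 0.15 SE, 1.81-fold, adjusted p = 0.0145, limma). It was higher in M5 than in M1 and in M4 in both fits, by 0.89 and 1.00 without the block, whereas against control with the block it was 0.71 ± 0.16 and missed the threshold (adjusted p = 0.0518). Its signal was low, at 3.76 to 4.42 outside M5.

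Of 30 further NF-kappaB targets, 28 were measured, and in M5 without the block 2 rose and 0 fell, beside the 2.37% of all genes called. PTGES, the synthase that makes prostaglandin E2, was higher in M5 by 0.98 ± 0.23 (1.98-fold, adjusted p = 0.0406), and by 0.75 with the block (adjusted p = 0.0119). MMP9, a matrix-degrading gelatinase, was higher by 0.57 ± 0.13 (1.48-fold, adjusted p = 0.0407), a call that was lost with the block (0.40 ± 0.17, adjusted p = 0.287). Between lines, PLAU (urokinase) was lower in M5 than in M1 (-1.09, adjusted p = 0.0425) and than in M4 (-1.06, adjusted p = 0.0320), and both calls were lost with the block (-0.75, adjusted p = 0.0971, and -0.67, adjusted p = 0.152). The interleukin-7 receptor IL7R was higher in M5 than in M4 by 1.72 (3.29-fold, adjusted p = 0.0318), and by 2.20 with the block (adjusted p = 0.000784). Also with the block, PTGES, IL7R and TNFAIP8 were called higher in M5 than in M1 (1.12, 1.36 and 0.64), beside 1.61% of all genes. PTGES was called higher in M5 than in M4 (0.91), beside 1.85%. The TNFAIP8 value came from M5 replicate 1 at 7.82, while M5 replicates 2 and 3 were at 7.09 and 7.17. With the block, 2 fell in M5 against control, beside 1.98% of all genes called in either direction. They were the pattern-recognition protein PTX3 (-1.56, adjusted p = 0.0381) and the anti-apoptotic BCL2L1 (-0.70, adjusted p = 0.0403). IL7R was lower in M4 (-1.39, adjusted p = 0.00601), beside 0.15% of all genes called. Without the block these were -1.15 (adjusted p = 0.0851), -0.12 (adjusted p = 0.742) and -1.18 (adjusted p = 0.411). PTX3, like MYD88, lies on chromosome 3, and the part of that chromosome's shift in its value was not tested. The blocked BCL2L1 value came from M5 replicate 1 at 7.48, while M5 replicates 2 and 3 were at 8.14 and 8.05 and the controls at 7.88 to 8.19. None of the 28 was called for the mean of the lines in either fit, where 4 had an unadjusted p under 0.05 without the block and 9 with it (limma), beside 8.16% and 9.69% of all genes. The median difference of this list for the mean of the lines was 0.02 without the block and -0.02 with it.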

How the data were processed

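Total RNA of 13 samples was measured on Affymetrix arrays. The authors deposited log2 signals of 22277 probe sets obtained by RMA, as the labels record per the submitters' processing notes. Its version and any other step are not given in the sources, and scanner files were not used here. RMA sets all arrays to a common distribution, so a shift shared by most genes would not be seen, and the small number of arrays limits the precision.

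Control probe sets (62) were left out. The probe set with the highest mean stood for each gene named alone, which gave 11963 genes with no filter on low signals. limma 3.58.1 in R 4.3.3 fitted 5 group means (lmFit, eBayes), with control as the mean of both kinds and Benjamini-Hochberg adjustment over all genes. Array sets came from Ward clustering of the control probe sets, cut at 4 sets, a number that was set and not estimated. They entered as a fixed block beside the fit without it. Errors are limma's standard errors (SE) or SDs, as stated, and p-values measure the spread between these arrays. The fit was tested on simulated data.

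The members and gene lists were chosen with earlier results of these data known. Array-by-array values are given for members called in any comparison and for IL6, CXCL1, CXCL8, NFKB1, RELA and NFKBIA; other members appear by range. Of the pathway lists, called genes are named, at most 3 per list and comparison. After each gene's group mean was subtracted, same-numbered samples of different groups correlated from -0.51 to 0.53 in 23 pairs, so numbers were not used as a pairing. In the control groups of 2 arrays the centred values mirror each other, so their correlations come in pairs of opposite sign. Lists of fibroblast (7 genes) and endothelial (6) markers were also read: COL1A1 and COL3A1 lay above the gene median on all arrays, and PDGFRA and LUM, with CDH5, KDR, VWF and EMCN, lay below the lower quartile on all arrays. No 2 arrays were copies: the smallest median absolute difference was 0.0905. Alternatives were other blocks, variance models, probe sets, filters, normalizations, controls, thresholds and single arrays left out.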

Additional observations from a re-analysis of the deposited data

Results flagged for a closer look

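Differences between lines in the same contrast were tested directly with limma. Without the block, M5 was lower than M1 in CXCL8 (-0.73) and IL18 (-1.62), and lower than M4 in CXCL8 (-0.67) and IL18 (-2.15). With the array-set block, M5 was lower than M1 in CXCL1 (-1.14) and higher in IL15 (1.05), and lower than M4 in IL18 (-1.45).

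A single array lay far from the rest of its group in 4 of 64 checks by Dixon's criterion, where chance gives about 1 in 20. Among the 9 metastatic arrays, CXCL6 was highest in M4 replicate 1 (3.61), IL32 in M5 replicate 2 (5.01) and PTGS2 in M1 replicate 3 (4.36). Among the 4 control arrays, NFKBIE was highest in control without luciferase replicate 2 (6.18). CXCL6 and PTGS2 lay below the lower quartile of genes on every array.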

How the results depend on the processing

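Counts of called members depended on the processing in M5 and, with the block, in the mean of the lines. Against control, M5 had 2 members called, and 1 with 4 array sets as a block, with the mean of a gene's probe sets or with the most variable probe set. The count was 0 with 3 sets from the spike-ins, with either kind of control alone, with only the arrays compared, at an adjusted p under 0.01, or without both arrays of set 4, an alternative chosen after seeing the data; leaving out 1 array gave 0 to 5, with 5 when M5 replicate 1 was left out. For M5 against M1 the count of 2 became 1 with the mean or most variable probe set or at 0.01, 0 with 3 sets, only the arrays compared or no set 4, and 0 to 7 with 1 array left out; 2 with 4 sets was a different pair. For M5 against M4 it became 1 with 4 or 3 sets, the most variable probe set, only the arrays compared, at 0.01 or without set 4, and 1 to 4 with 1 array left out. For M4 against M1 leaving out 1 array gave 0 to 1, the 1 being IL15 without M1 replicate 3. For the mean of the lines the count was 0, and 2 with 4 sets; with that block and 1 array left out (chosen after seeing the data) it was 0 to 5, and 1 to 4 for M5. The blocked fit without M5 replicate 1 could not be fitted, since set 4 then holds M5 alone. With the replicate block, the numbers of the labels gave 0 members for M5 against control, 1 for M5 against M1 and 1 for M5 against M4; numbers did not pair the samples. Of 1656 values of single genes, 65 lost a call, 10 gained one, 0 called values changed sign and 103 that were called in neither setting changed sign. The cause was not tested. Signals near background limit CXCL6, CCL2, MAP3K8 and PTGS2.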
